A study of Mus musculus with 5 samples.

Results

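The genes described here are 10 that encode proteins of fatty acid uptake and binding, chosen by name from 24330 gene symbols in a table of RNA-seq levels. They comprise 5 genes of the fatty acid-binding protein (FABP) family (Fabp1, Fabp3, Fabp4, Fabp5 and Fabp7), the surface receptor gene Cd36, and 4 genes of the fatty acid transport protein (FATP) family (Slc27a1, Slc27a2, Slc27a3 and Slc27a4). All 10 had a row, and each was read in 3 libraries of primary adipocytes from the epididymal fat pad of C57BL/6 mice, wild type for Dnmt1 and 17 weeks old. The series is about DNA methylation that depends on Dnmt1, and its bisulfite libraries, 1 from mice with Dnmt1 deleted in adipocytes and 1 from wild-type mice, were not analysed here. There is thus 1 group of 3 samples, and the comparisons are between genes within a library and between libraries. Nothing in the labels says whether the libraries came from separate or pooled animals, so errors and p-values here reflect how these 3 libraries vary, and that variation may be technical alone.

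Long-chain fatty acids reach fat cells from triglyceride that lipoprotein lipase splits on the capillary wall, and cross first the endothelium and then the adipocyte membrane. CD36 is a membrane glycoprotein that binds fatty acids and speeds their entry. FATPs are membrane proteins that couple uptake to the attachment of coenzyme A. FABPs are small cytosolic proteins that hold a fatty acid in a barrel-shaped pocket and carry it between membranes, enzymes and nuclear receptors. Fabp4, also called aP2, is a classic marker of differentiated adipocytes, but capillary endothelium and macrophages make it too, as capillary endothelium also makes Fabp5 and Cd36.

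Levels are in FPKM, fragments per transcript length and library size, a unit that allows genes to be compared per length. The table holds no counts, so sequencing depth is unknown and counting error cannot be stated. Detection here means an FPKM of at least 1. Between 11261 and 12532 symbols were detected per library, and 45.5% of all symbols were detected in every one. Of 15 adipocyte markers 15 were detected in every library, but so were 13 of 13 endothelial, 13 of 13 macrophage, 9 of 9 fibroblast, 7 of 7 mural and 6 of 6 mesothelial markers. Replicate 1 stood apart, with summed adipocyte marker FPKM of 13491 against 4329 and 4553 in replicates 2 and 3, and summed endothelial marker FPKM of 1410 against 2948 and 2822. Germ cell markers, such as the protamine genes Prm1 and Prm2, were also highest there, with 1218 FPKM summed over 7 genes against 21.1 and 9.51. Macrophage markers summed to 2999, 2346 and 2566 FPKM in replicates 1, 2 and 3, erythroid markers to 8240, 12482 and 9475, fibroblast markers to 671, 770 and 954, mural markers to 418, 543 and 929, and mesothelial markers to 39.5, 69.6 and 146.

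Of the 10 genes, 6 were detected in every library, beside 45.5% of all symbols. Fabp1, of liver type, and Slc27a2, of liver and kidney, were listed at 0 throughout. Fabp3 and Fabp7 passed FPKM 1 in 2 of 3 libraries. The members together held 5.09%, 8.88% and 7.16% of the summed FPKM in replicates 1, 2 and 3, a mean of 7.04% ± 1.90 (SD, n = 3). Fabp4 made up 94.2% ± 0.365 of that, and without it the share was 0.408% ± 0.103.

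**Figure D1:**
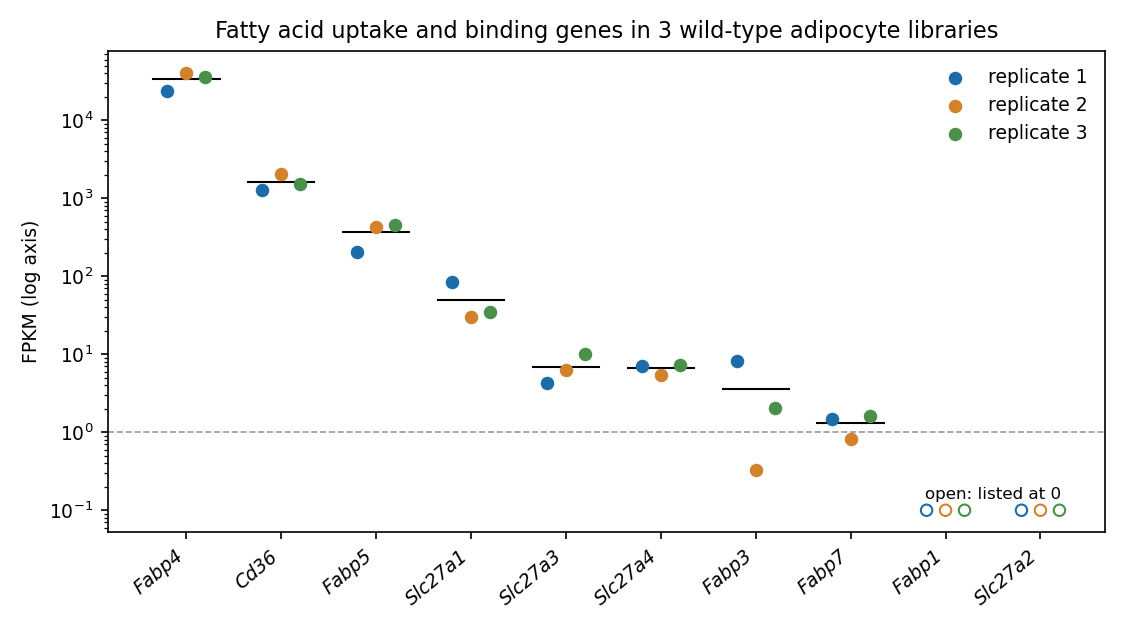
FPKM of the 10 genes on a log axis, ordered by mean, with 1 filled point per library, a black line at the mean over 3 libraries, and open points for values listed at 0. The dashed line marks FPKM 1. Fabp4 stands more than an order of magnitude above Cd36, and Fabp1 and Slc27a2 have open points only.

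Among the binding proteins, Fabp4 (chromosome 3, 10204343 to 10208576 in the table's coordinates) was the highest gene of each library. It stood at 24052, 40887 and 35482 FPKM in replicates 1, 2 and 3. Its lowest value, in replicate 1, was 1.70 times below its highest, in replicate 2. Fabp5, the epidermal-type FABP that binds many of the same ligands (chromosome 3, 10012585 to 10016610), stood at 206, 431 and 458 FPKM. It ranked between 172 and 353 among the symbols of a library, and replicate 1 was again the lowest, below the other two by more than 2-fold. Fabp5 has processed copies elsewhere in the mouse genome, and the labels do not say how reads were shared with them.

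Fabp3, the heart-type FABP of oxidative muscle and brown fat, was the most uneven gene of the set. It stood at 8.23, 0.326 and 2.06 FPKM, and replicate 1 was 25.2 times as high as replicate 2. Beside it, markers of other tissues that can hold Fabp3 were low or moved with replicate 1. Brown adipocyte markers, with 2 of 7 detected in every library and none at 0 throughout, summed to 20.3, 5.75 and 10.7 FPKM. The 2 detected genes made up most of that sum, Cox8b at 13.0, 2.45 and 5.72 and Cox7a1 at 5.82, 3.09 and 4.42. Ucp1 and Cidea stayed at or below 0.322 and 0.514 FPKM. Striated muscle markers, 2 of 9 detected, summed to 10.4, 16.4 and 9.29 FPKM, highest in replicate 2 where Fabp3 was lowest. The 2 detected genes made up most of that sum, Acta1 at 6.44, 10.1 and 3.76 and Mylpf at 2.98, 6.27 and 4.61. The others stayed at or below 0.433 FPKM. Of these, Ckm, Mb and Tnnt3 were highest in replicate 1, as Fabp3 was, and Tnnt2, Actc1, Myh6 and Myl2 in replicate 3. The germ cell markers, 2 of 7 detected, had the sums given above. The part of these cells in the Fabp3 value was not tested. The table's locus of Fabp3 (chromosome 4, 130308778 to 130315463) also overlaps Zcchc17, at 17.1, 16.9 and 19.6 FPKM, and the labels do not say whether strand was kept, so reads of the pair cannot be told apart where they overlap.

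Fabp7, the brain-type FABP of glia (chromosome 10, 57784923 to 57788450), lay at the detection limit with 1.49, 0.825 and 1.596 FPKM. Of 8 glial and Schwann cell markers only the myelin gene Mbp was detected in every library, and the list summed to 7.60, 4.05 and 5.51 FPKM. Replicate 2 was lowest for both Fabp7 and that sum, and the part of glial cells was not tested. Fabp1, the liver-type FABP (chromosome 6, 71199888 to 71205023), was listed at 0 in all 3 libraries. Of 8 hepatocyte markers, which summed to 1162, 405 and 318 FPKM, only Cyp2e1 was detected in every library, an enzyme that fat cells also make. The serum protein gene Ttr was listed at 0 throughout, and the albumin gene Alb stood at 4.30, 0.840 and 0.713 FPKM.

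Cd36 (chromosome 5, 17781690 to 17888959) was the second gene of the set, at 1275, 2059.6 and 1535 FPKM in replicates 1, 2 and 3. It ranked between 14 and 38 among the symbols of a library, and the highest value was 1.62 times the lowest. The table gives it 3 transcription starts, whereas each of the other 9 genes has 1, so its value may cover transcripts of several promoters.

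Of the transport proteins, Slc27a1 (FATP1, the form of fat and muscle that insulin moves to the cell surface) was the highest in each library. It stood at 85.5, 29.7 and 35.2 FPKM. Replicate 1 was thus more than 2-fold above both others, the opposite of Fabp4, Fabp5 and Cd36. Slc27a4 (FATP4, widely expressed and the main form of the gut) stood at 7.01, 5.45 and 7.29 FPKM and was the steadiest of the 8 genes with values above 0. Slc27a3 (FATP3, known for its acyl-CoA synthetase activity) stood at 4.23, 6.32 and 10.1 FPKM, with replicate 1 lowest. Slc27a2 (FATP2, of liver and kidney) was listed at 0 in all 3 libraries. Of 6 markers of the kidney's proximal tubule none was detected in every library, 3 were listed at 0 throughout, and the list summed to at most 0.502 FPKM. A 0 in this table can be a failed estimate, so these genes are described as listed at 0 and not as absent.

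By mean log2(FPKM + 0.1) the order was Fabp4, Cd36, Fabp5, Slc27a1, Slc27a4, Slc27a3, Fabp3 and Fabp7. The first 4 steps of that order had 1 sign in 3 of 3 libraries and a mean above their SD. The last 3 steps did not, so Slc27a4 and Slc27a3, Slc27a3 and Fabp3, and Fabp3 and Fabp7 did not differ beyond their spread as neighbours. The step from Fabp4 to Cd36 was the most even, at 18.9-, 19.9- and 23.1-fold in replicates 1, 2 and 3, or 4.36 ± 0.15 log2 units (SD, n = 3). Fabp4 exceeded Fabp5 117-, 94.9- and 77.5-fold, or 6.57 ± 0.30 log2 units.

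Ratios that involve Slc27a1 or Lpl were less even. Cd36 exceeded Slc27a1 14.9-fold in replicate 1 but 69.1- and 43.4-fold in replicates 2 and 3, with a mean log2 ratio of 5.15 ± 1.14, or 5.78 without replicate 1. Slc27a1 exceeded Slc27a4 12.03-, 5.37- and 4.78-fold, a mean log2 ratio of 2.76 ± 0.73, and Slc27a3 by 2.77 ± 1.347, which was 2.001 without replicate 1. The long-chain acyl-CoA synthetase gene Acsl1, whose product acts beside FATP1 in trapping fatty acids, was above Slc27a1 by 0.78 ± 0.55 log2 units. Cd36 was level with the lipase gene Lpl in replicate 1, at 1.07-fold, and 5.40- and 4.59-fold above it in replicates 2 and 3, a mean log2 ratio of 1.58 ± 1.28, or 2.32 without replicate 1.

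Of 14 ratios listed for testing, 12 could be formed, since Fabp1 and Slc27a2 offer no ratio. In 10 of the 12 all libraries gave the same sign. For each of these the exact two-sided permutation p from flipping signs was 0.25, and 0.3 when Benjamini-Hochberg adjustment was applied to all 12. With 3 libraries 0.25 is the smallest p this test can give, so no ratio could pass 0.05. The other 2 were mixed. Fabp3 over Fabp7 was 2.39, -1.12 and 0.35 log2 units (exact p = 0.75, adjusted 0.818), and Slc27a4 over Slc27a3 was 0.72, -0.21 and -0.47 (exact p = 1, adjusted 1).

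**Figure D2:**
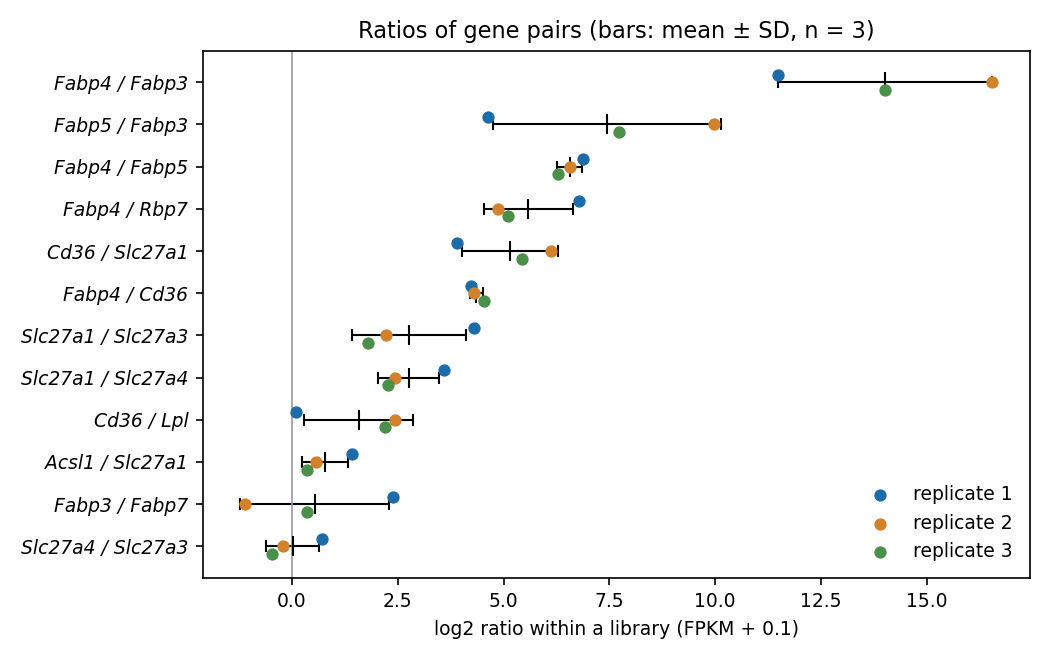
Log2 ratio of 12 gene pairs within each library on log2(FPKM + 0.1), with 1 point per library and a black bar for mean ± SD over 3 libraries. The Fabp4 over Cd36 points lie between 4.24 and 4.53, whereas those of Fabp3 over Fabp7 and Slc27a4 over Slc27a3 fall on both sides of 0.

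To compare libraries, log2 values were centred on the median of each library over the 11993 symbols whose mean FPKM was at least 1. Of the 10 genes 8 reached that mean, and Fabp3 did so through replicates 1 and 3 only. Replicate 1 was below both others for Fabp4, Fabp5, Cd36 and Slc27a3, 4 of 8, beside 45.0% of all 11993 symbols. It was above both others for Slc27a1 and Fabp3, 2 of 8, beside 37.2%. The split among all symbols depended on the scaling: with no centring 46.7% were above and 32.8% below, and with TPM 48.1% and 34.02%, while the members' counts were the same. Differences of at least 2-fold were rarer among all symbols, at 2.70% below and 6.72% above, and among the members Fabp5 lay below by that margin and Slc27a1 and Fabp3 above. Replicate 1 was thus the lowest library for some members and the highest for others, as it was among all symbols. Whether the split of the 8 members differs from that of all symbols was not tested. With so few genes, and shares of all symbols that moved with the scaling, the counts do not set the members apart. In these bulk samples fewer cells of a type and less RNA per cell cannot be told apart.

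The spread between libraries was above that of most genes for 7 of the 8. The SD of the centred log2 level was 0.49 for Fabp4, 0.46 for Cd36, 0.71 for Fabp5 and 0.74 for Slc27a1, and it exceeded that of 81.0%, 78.7%, 90.2% and 91.0% of the 11993 symbols. Fabp3 had 2.04, more than 97.5% of symbols. Slc27a4 was the exception, at 0.12 and above 19.5% of symbols.

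**Figure D3:**
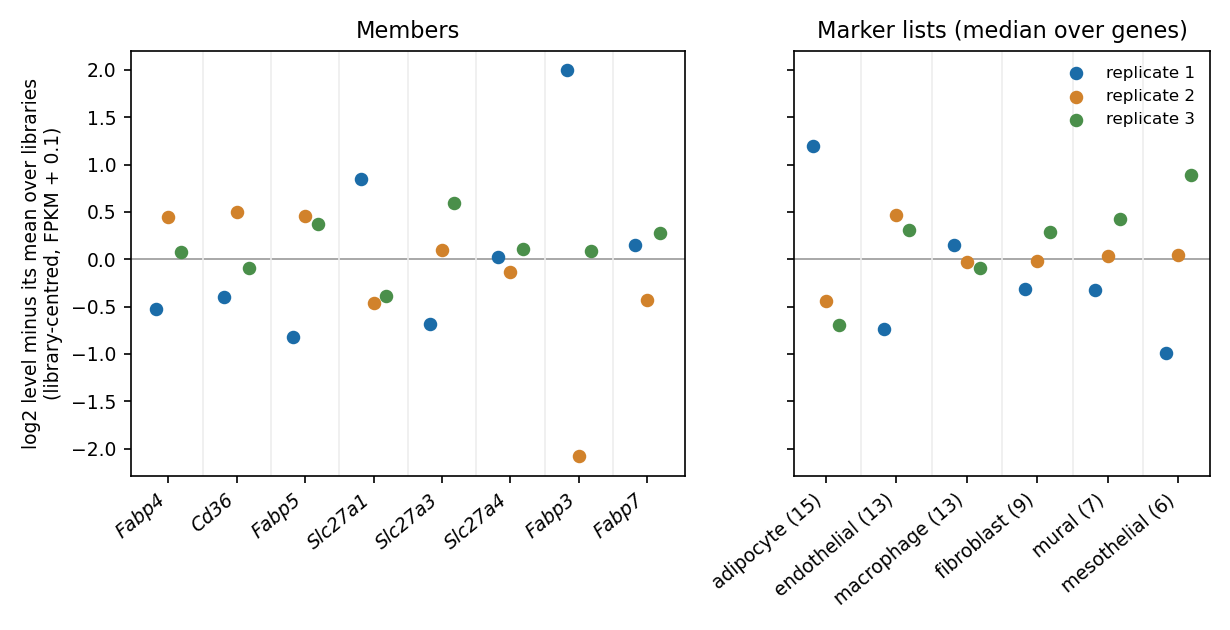
Left, the centred log2 level of each of 8 genes minus its mean over 3 libraries, with 1 point per library. Right, the median of the same quantity over the genes of 6 marker lists, with the number of genes in brackets. In replicate 1 Fabp4, Cd36, Fabp5 and Slc27a3 lie below 0. So do the mesothelial list at -0.99, the endothelial at -0.74, the mural at -0.33 and the fibroblast at -0.32. Slc27a1, Fabp3, Fabp7 and Slc27a4 lie above 0, as do the adipocyte list at 1.20 and the macrophage list at 0.15.

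Marker levels of adipocytes and endothelium moved between the same libraries. In replicate 1 the level was highest for 14 of 15 adipocyte markers, beside 37.2% of all 11993 symbols. It was lowest for 13 of 13 endothelial markers, beside 45.0%, and no marker of either list was at 0. Replicate 1 was also lowest for 8 of 9 fibroblast, 6 of 7 mural and 5 of 6 mesothelial markers, and highest for 7 of 13 macrophage markers. Measured against the median of the endothelial list within each library, Fabp5 was higher by 1.35, 1.36 and 1.36 log2 units in replicates 1, 2 and 3. That range of 0.010 was smaller than for any other of 11980 symbols, whose median was 1.29. Against the mean of the list the range of Fabp5 was 0.14, with 46 symbols below it. Fabp4 had a range of 0.58 against the endothelial median and 2.85 against the adipocyte median. Cd36 had 0.87 and 2.78, and Slc27a3 had 0.58 and 3.09. Against the median of the mural list the ranges of Fabp4, Cd36 and Slc27a3 were smaller still, at 0.50, 0.72 and 0.38. That of Fabp5 was 0.49. For Fabp4, Cd36 and Slc27a3 the endothelial list was thus not the closest. Slc27a1 went the other way, with 0.57 against the adipocyte median, where 1.74% of symbols had a smaller range, and 2.58 against the endothelial median. With 3 libraries these ranges are descriptions, and the part of endothelial cells or adipocytes in each gene's level was not tested.

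Fabp4 and Fabp5 lie in a cluster of FABP genes on chromosome 3, and the members of that cluster differed in level by orders of magnitude. Going outward from Fabp4 in both directions, Fabp9 (10193624 to 10197283) ends 7.06 kb before it, Pmp2 20.5 kb and Fabp5 188 kb before it, and Fabp12 begins 35.6 kb after it. Fabp9, the FABP of the sperm perforatorium, stood at 38.0, 1.23 and 0.776 FPKM in replicates 1, 2 and 3, highest in the library with the highest germ cell markers. Pmp2, the FABP of peripheral myelin, stood at 2.12, 0.999 and 0.668, and Fabp12 at 0.459, 0 and 0.0778. Replicate 1 was the highest for these 3 and the lowest for Fabp4 and Fabp5. The part of germ cells in the 3 values was not tested. Beyond the cluster, the inositol phosphatase gene Impa1, 105 kb from Fabp4, stood at 11.5, 11.6 and 13.4 FPKM.

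**Figure D4:**
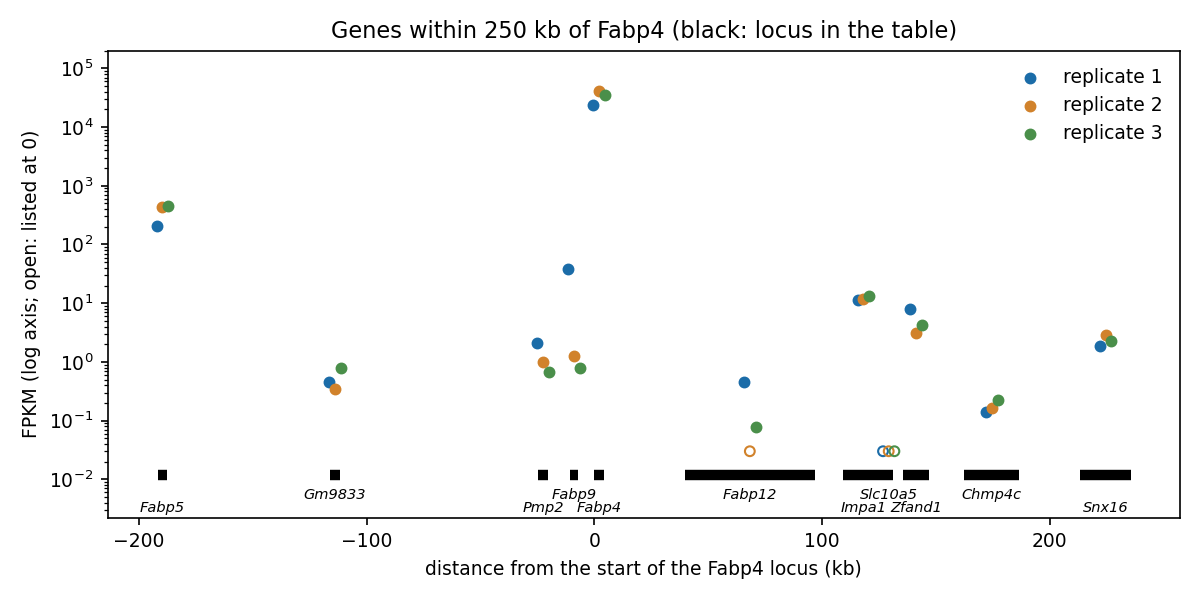
FPKM on a log axis of the 11 genes within 250 kb of Fabp4, placed by distance in kb from the start of the Fabp4 locus, with 1 point per library, open points for values listed at 0 and black bars for the loci. Fabp4 and Fabp5 stand above their neighbours in each library, and the replicate 1 point of Fabp9 lies far above its other 2.

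The rest of the 3 families was mostly low. Fabp2 and Fabp6, the FABPs of the small intestine, were listed at 0 in all 3 libraries. Slc27a5, the FATP of bile acid conjugation in liver, and Slc27a6, the form of heart, stayed at or below 0.115 and 0.419 FPKM. The relatives of Cd36 were an exception. Scarb1, the receptor for high-density lipoprotein, stood at 141, 185 and 178 FPKM, and the lysosomal protein gene Scarb2 at 41.1, 45.4 and 52.6. Both were lowest in replicate 1, as Cd36 was. Among the retinoid-binding relatives of FABPs, Rbp7 stood out at 217, 1389 and 1037 FPKM. Fabp4 exceeded it 111-fold in replicate 1 and 29.4- and 34.2-fold in replicates 2 and 3, or by 5.59 ± 1.05 log2 units. Crabp2 stood at 0.623 ± 0.337 FPKM (SD, n = 3), Crabp1 at most at 0.0927, and Rbp2 was listed at 0 throughout.

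Of the genes listed as acting next to these proteins, most were detected in every library, beside 45.5% of all symbols. In the list of enzymes and carriers of acyl-CoA, 17 of 22 were detected in every library. Dbi, which encodes the acyl-CoA-binding protein, led it at 1969, 807 and 815 FPKM, followed by Acsl1 at 227, 44.1 and 45.3. Both were highest in replicate 1, as Slc27a1 was, while the thioesterase gene Acot7, at 32.6, 57.9 and 65.5, was lowest there. Acot9 and Acsl5 stood at 49.7 ± 7.49 and 37.4 ± 7.56, and the brain synthetase gene Acsl6, at 0.477 FPKM in replicate 1, was listed at 0 in the other 2.

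In the list of lipoprotein lipolysis and uptake 11 of 12 were detected. Gpihbp1, the endothelial anchor of lipoprotein lipase, stood at 651, 1613 and 1425 FPKM, whereas Lpl, which adipocytes make, stood at 1190, 381 and 334. The caveola genes Cav1 and Ptrf stood at 785 ± 34.9 and 571 ± 138, and the lipase inhibitor gene Angptl4 at 444 ± 83.8. The phospholipid transporter gene Mfsd2a was lowest, at no more than 0.335. Got2, which encodes the enzyme also described as the plasma membrane FABP, stood at 28.03, 28.6 and 36.7.

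All 11 genes of the list on endothelial fatty acid transport were detected. Replicate 1 was lowest for 9 of them, beside 45.0% of the symbols with a mean FPKM of at least 1. Meox2 and Tcf15, the transcription factors that act together in capillary endothelium on Cd36 and fatty acid uptake in mice, stood at 29.6, 53.6 and 52.8 FPKM and at 49.8, 96.5 and 83.7. The VEGF-B receptor genes Nrp1 and Flt1 stood at 74.8, 117 and 112 and at 48.2, 80.3 and 80.2. Their ligand gene Vegfb was highest in replicate 1, at 74.2, 29.1 and 29.9. The Notch ligand gene Dll4 stood at 45.8 ± 6.81 (SD, n = 3), and Ffar4, which encodes a receptor for long-chain fatty acids, was lowest of the list at 14.7, 2.83 and 4.56. The median over this list of replicate 1 minus the mean of the others was -0.73 on the centred log2 scale, beside -0.04 over all symbols. It was 0.33 for the acyl-CoA list and 0.03 for the lipolysis list.

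Of 17 transcriptional regulators 14 were detected in every library. Pparg, the nuclear receptor that drives Fabp4 and Cd36 in fat cells, stood at 174, 194 and 164 FPKM, with a highest value 1.18 times the lowest. Cebpa, which acts with it, stood at 182, 56.2 and 58.7, and the median of replicate 1 minus the others over the list was 0.26. Nfe2l2, Cebpd and the oxysterol receptor gene Nr1h2 stood at 85.4 ± 0.663, 61.7 ± 11.4 and 51.0 ± 10.6. Ppargc1a was lowest, at no more than 0.513. The list on the trafficking and palmitoylation of CD36 had 9 of 9 analysed genes detected, with a median of -0.28. Its depalmitoylase gene Abhd17a led at 40.5, 44.4 and 46.8, the palmitoyltransferase gene Zdhhc4 stood at 21.8 ± 0.136 and Golga7, which encodes a palmitoyltransferase partner, at 37.6 ± 3.97. The Src family kinase genes Lyn and Fyn stood at 33.4 ± 5.43 and 24.2 ± 7.12, and Src was lowest at 4.65 ± 1.17.

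Genes with the most similar pattern over the 3 libraries were looked for among 5708 non-member symbols with a mean FPKM of 10 or more, as the smallest Euclidean distance between centred log2 levels after the mean of each gene was removed. With 3 points many genes lie close, so this is a description. For Fabp4 they were Ppp1r2, Grap and Nos2, at distances of 0.023 to 0.028, and 2.96% of the symbols lay within 0.2. For Cd36 they were Gpr160, Tspan6 and Chek2, with 1.24% within 0.2. For Fabp5 they were Uba7, Vegfc and Mmrn2, with 1.94%. Phyh, Rnd3 and Mettl7a1 were nearest to Slc27a1, with 1.30%, and Phyh, at 79.4, 27.7 and 32.9 FPKM, lay only 0.0054 away.

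Because the series is about DNA methylation, which in mammals falls mainly on CpG pairs, the CpG content of promoters is shown as sequence background. It says nothing of the methylation state in these cells. RefSeq promoter windows (GRCm38.p6) of 300 bases, 250 before and 50 after a transcription start, were held for 8 of the 10 genes in 10 windows. Fabp4 and Fabp5 had no entry. The upstream 250 bases of 5 promoters follow, 5′ to 3′ along the gene, with each CpG in capitals. They are shown because the 3 genes with values above 0 and the 2 listed at 0 each include CpG-poor and CpG-rich promoters. Fabp3, the CpG-rich one of the 3, passed FPKM 1 in 2 of 3 libraries.
Cd36: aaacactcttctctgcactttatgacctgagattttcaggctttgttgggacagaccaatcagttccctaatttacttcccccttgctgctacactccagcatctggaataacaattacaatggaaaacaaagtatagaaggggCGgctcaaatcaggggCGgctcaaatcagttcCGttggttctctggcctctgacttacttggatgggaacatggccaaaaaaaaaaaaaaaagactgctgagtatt
Slc27a1: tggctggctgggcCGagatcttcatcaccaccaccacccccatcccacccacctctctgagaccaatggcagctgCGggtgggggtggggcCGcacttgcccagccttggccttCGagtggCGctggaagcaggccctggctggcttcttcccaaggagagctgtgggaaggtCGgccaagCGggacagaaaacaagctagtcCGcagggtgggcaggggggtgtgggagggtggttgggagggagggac
Fabp3: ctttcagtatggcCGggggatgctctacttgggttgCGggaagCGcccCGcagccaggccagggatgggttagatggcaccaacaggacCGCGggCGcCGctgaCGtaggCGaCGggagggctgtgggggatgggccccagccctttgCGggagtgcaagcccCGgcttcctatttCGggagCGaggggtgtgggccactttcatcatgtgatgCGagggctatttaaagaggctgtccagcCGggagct
Slc27a2: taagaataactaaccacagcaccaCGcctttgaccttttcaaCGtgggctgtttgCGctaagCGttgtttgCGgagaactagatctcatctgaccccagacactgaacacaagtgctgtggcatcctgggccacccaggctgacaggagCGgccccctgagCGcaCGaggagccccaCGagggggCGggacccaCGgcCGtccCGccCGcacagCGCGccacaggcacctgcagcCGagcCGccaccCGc
Fabp1: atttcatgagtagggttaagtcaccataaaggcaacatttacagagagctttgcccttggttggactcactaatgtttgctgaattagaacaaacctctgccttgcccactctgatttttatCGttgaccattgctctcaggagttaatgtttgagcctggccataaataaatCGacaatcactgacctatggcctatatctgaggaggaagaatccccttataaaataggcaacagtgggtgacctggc

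The window of Cd36 (chr5:17835897-17836146, minus strand) held 3 CpG, an observed over expected ratio of 0.22. It lies inside the table's locus, at 1 of several starts of the gene. The first window of Slc27a1 (chr8:71568621-71568870, plus strand), 56 bases before the start of the table's locus, held 10 CpG and a ratio of 0.32. That of Fabp3 (chr4:130308488-130308737, plus strand) held 22 CpG and a ratio of 0.71. Of the genes listed at 0, Slc27a2 (chr2:126552774-126553023, plus strand) had the most CpG of the set, 25 and a ratio of 0.79, and Fabp1 (chr6:71199629-71199878, plus strand) held 3 and a ratio of 0.20. The coordinates are those of the upstream 250 bases, and the CpG counts are over the whole window.

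Of all 20759 windows matched to the FPKM symbols, 48.1% had a ratio of at least 0.6, a limit used in defining CpG islands. No limit on GC content or length was applied, so such windows need not be CpG islands. At least 1 such window was held by 77.5% of the 8457 symbols detected in every library and by 7.40% of the 3137 listed at 0 in all 3. Of the 8 member genes 4 had one, namely Fabp3, Slc27a1 in 1 of its 3 windows, Slc27a2 and Slc27a3. With the upstream bases alone 2 had one, Fabp3 and Slc27a2. The share of all windows was not computed for the upstream bases, so that count has no background beside it. Cd36, the highest member with a window, had none, and Slc27a2, listed at 0, had one.

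**Figure D5:**
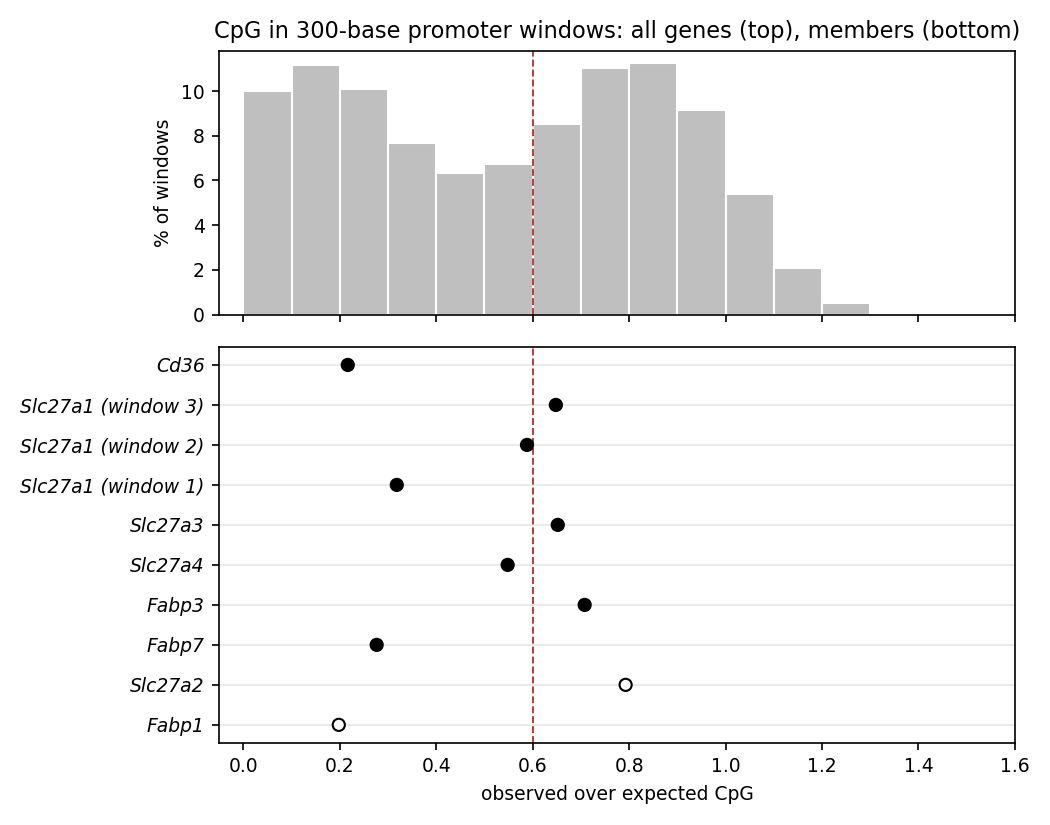
Top, the share of all 20759 promoter windows in bins of observed over expected CpG, where the axis ends at 1.6 and 0.0048% of windows lie beyond it. Bottom, the 10 windows of 8 genes, ordered by mean FPKM from high to low, with filled points for genes whose mean FPKM reached 1 and open points for genes listed at 0. The dashed line marks 0.6. Cd36 at 0.22 and Slc27a2 at 0.79 lie on opposite sides of it.

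Fixed motifs were searched on both strands of the 300 bases. The GC box GGGCGG was found in Cd36, Slc27a1, Slc27a2, Slc27a3 and Slc27a4, in 6 of 10 windows, beside 46.8% of all windows. The CCAAT box was found in Cd36, Fabp7, Slc27a1 and Slc27a3, in 5 windows, beside 37.9%. The TATA box TATAAA was found in Fabp1 alone, beside 12.1%. The AP-1 site TGANTCA and the DR1 element, a direct repeat of AGGTCA with any 1 base between the copies and a form bound by PPAR with RXR, were in none of the 10 windows, beside 7.28% and 0.0578% of all. These letters are a description and not shown to be sites.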

How the data were processed

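RNA-seq levels were read from 1 table of FPKM values that the authors deposited, with 1 linear column per library, matched to its sample by the column name in the labels. Per the submitters' processing notes, the tools named are featureCounts, Bismark (version 0.22.1) and Trim Galore (version 0.5.0), and 2 build names occur, mm10 and GRCm38. Which of them made the FPKM values is not stated. The smallest positive value, 6.06e-62, is far below 1 fragment, so values are estimates, a 0 can be a failed estimate, and paralogs are uncertain. Low values gave no step common to all 3 libraries (122 of 1263 low rows lay at 1 ratio between replicates 1 and 3, but 15 of 761 and 16 of 916 in the other pairs), so whole reads were not recovered and count tests were not used. FPKM is a share of a library, so an abundant gene such as Fabp4 lowers all others. No other per-sample column was present.

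The table held 24889 rows. Of these, 27 whose symbol had turned into a date were left out, and for 273 symbols with several rows the highest was kept. Locus starts are counted from 1. Scripts ran in Python 3.11.15 with scipy 1.17.1, pandas 2.3.3, numpy 2.4.6 and, for plots, matplotlib 3.10.9. Ratios were formed within libraries on log2(FPKM + 0.1), which understates ratios of low genes, and their signs were flipped in an exact two-sided permutation test.

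The 10 genes and the 21 gene lists (207 of 208 genes analysed) were chosen with earlier results of these data known. Named were all members and their family and retinoid-binding relatives, all genes in pairs, 5 leading genes and the last one of each pathway list by mean FPKM, the top 3 of each marker list and the 3 genes nearest in pattern. One gene that this rule names is not reported here. Marker genes are mostly given as list sums. Got2, Vegfb, Alb, Ttr, Mbp, Ucp1, Zcchc17 and Impa1 were added after their values were seen, as were Ckm, Mb, Tnnt3, Actc1, Myh6 and Myl2. Alternatives covered the pseudocount, the detection threshold, filters, scaling, the rows of a symbol, the promoter window and leaving out each library. Protein sequences were not used here.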

Additional observations from a re-analysis of the deposited data

How the results depend on the processing

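Of 100 values recomputed under alternative settings, 94 kept their sign, if ratios, or stayed within a set margin, if counts, shares or ranges. Of the others, 2 reversed and 4 moved beyond the margin. Not all ratios that kept their sign stayed close to the reported value. Without replicate 1 the mean log2 ratio of Fabp3 over Fabp7 reversed to -0.38 and that of Slc27a4 over Slc27a3 to -0.34. Without each library in turn these ratios ran from -0.38 to 1.37 and from -0.34 to 0.25. The share of the summed FPKM became 0.408% without Fabp4, and ran from 6.12% to 8.02% when libraries were left out. The number of members with a CpG-rich promoter became 2 with the upstream bases only, a setting for which no share of all windows was computed. With means in place of medians of marker lists, an alternative chosen after seeing the data, the ranges became 0.14 for Fabp5 against the endothelial list and 0.36 for Slc27a1 against the adipocyte list. The count of 6 detected members ran from 5 to 8, and was 8 without replicate 2. The share of all symbols detected was 45.5% under the reported setting and was not computed for the alternatives. The members highest or lowest in replicate 1 numbered 2 and 4 under all 7 settings each, while the share of all symbols highest there ran from 36.8% to 48.1% and the share lowest there from 32.8% to 45.6%. No ratio to Fabp1 or Slc27a2 was formed and protein identity was not run. Unknown depth limits what can be said of Fabp3, Fabp7 and the genes listed at 0.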
